A study of Mus musculus with 24 samples.

Results

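Colon RNA was compared between mice with T cell transfer colitis given a MEK inhibitor at 0.3 mg/kg (MEKi 0.3) and mice with the same colitis given a vehicle (Vehicle). The comparison used 8 of the study's 24 libraries, 4 per group, chosen by the group named on each library's own count file. The study as a whole also holds untreated animals, a group given 1 mg/kg of the inhibitor (MEKi 1) and antibody groups. All hosts were female C.B-17/Icr-scid/scid mice, 7 weeks old when bought; SCID mice lack mature T and B cells of their own but keep neutrophils, macrophages and other innate cells. On day 0 both groups received CD4+ T cells from BALB/c mice, activated for 3 days with ConA and IL-2 and injected intravenously. On day 17 the hosts were split into groups by diarrhea score. MEKi 0.3 mice then took the inhibitor once a day by mouth, in enteric microparticles, up to day 27. Vehicle mice were given 0.5% methylcellulose. Distal colon was taken on day 28, and poly(A) RNA was sequenced on an Ion Torrent instrument. No group had microparticles without the inhibitor, so the effects of the drug and of its carrier cannot be told apart.

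MEK is the kinase that phosphorylates and activates ERK, downstream of RAS and RAF. In the gut, ERK signalling downstream of EGF receptors drives epithelial proliferation and repair, and in leukocytes it takes part in T cell receptor signalling and cytokine production. Active ERK switches on its own inhibitors, the dual specificity phosphatase Dusp6 and the Sprouty proteins, together with the ETS factors Etv4 and Etv5. In transfer colitis, donor CD4+ T cells respond to gut bacteria, recruit neutrophils and macrophages, and the colon lining loses surface enterocytes while its crypts proliferate.

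Library totals were 4034493 to 5840995 counts in MEKi 0.3 and 4102817 to 5271844 in Vehicle. Levels are given throughout as CPM, counts scaled to library size with TMM factors, which compare a gene between libraries but not genes of different length with each other. Unless another n is given, n = 4 libraries per group and values follow the order of replicates 1 to 4. Nothing in the labels says whether each replicate was its own animal, and the p-values thus reflect only how these libraries vary, part of which may be technical. Goblet cell genes, markers of colon epithelium, were present in all 8 libraries, at a summed level of 13775, 14825, 14336 and 8744 CPM in MEKi 0.3, against 7936, 9244, 11904 and 8838 CPM in Vehicle. Donor T cells were present too, with 113 to 146 summed counts of the CD3 chains Cd3d, Cd3e and Cd3g in MEKi 0.3 and 146 to 227 in Vehicle, against 0 to 2 in untreated mice. The series table of the same counts gives all 8 libraries the names of other samples. By those names the CD3 counts would be 66 to 225 in MEKi 0.3, 1 to 146 in Vehicle and 0 to 139 in untreated mice. CD3 counts tell hosts given T cells from untreated ones, and cannot tell MEKi 0.3 from Vehicle.

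A pair of libraries stood apart. MEKi 0.3 replicate 4 correlated with its own group at 0.926 to 0.940 (Pearson, log2 CPM over genes) and with the Vehicle libraries at 0.958 to 0.969. On the first principal component of all 24 libraries, which held 47.9% of the variance, MEKi 0.3 libraries lay at -0.12, -10.5, -6.72 and 53.7 and Vehicle libraries at 55.9, 47.1, 39.4 and 58.7. Replicate 4 thus lay among the Vehicle libraries and its 3 companions did not. Vehicle replicate 4 held pancreas transcripts, with the summed level of pancreas genes at 149.9, 146, 133 and 13.6 CPM in MEKi 0.3, against 29.1, 30.8, 40.1 and 6855 CPM in Vehicle. Results are therefore given with and without MEKi 0.3 replicate 4, and Vehicle replicate 4 is named where leaving it out ended a call. MEKi 0.3 replicate 4 was singled out because its levels resembled Vehicle. Leaving it out therefore tends to widen the difference between the groups, and p-values from that fit do not allow for this choice. A trend with transcript length also separated the groups. With genes put into 5 bins of transcript length, the longest genes stood, by medians, relative to the shortest at 0.06, 0.30, 0.11 and 0.06 on the log2 scale in MEKi 0.3, against -0.05, -0.05, -0.29 and -0.12 in Vehicle. With offsets for transcript length the unpaired edgeR fit of all 24 libraries called the same number of genes, 1. At an unadjusted p below 0.05 it held 1333 higher and 1022 lower genes, beside 1628 and 1011 without offsets. The paired fit described below and the fit without MEKi 0.3 replicate 4 were not run with offsets, so the part of transcript length in their calls was not tested.

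**Figure D1:**
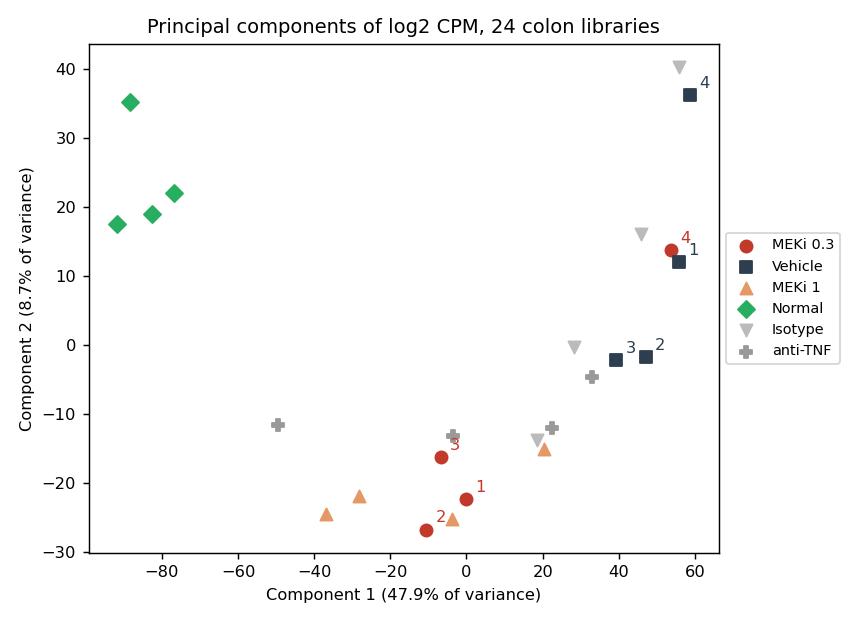
Principal components of log2 CPM in all 24 libraries, with the share of variance on each axis, 1 point per library, and the MEKi 0.3 and Vehicle points numbered by replicate. MEKi 0.3 replicates 1 to 3 lie between -10.5 and -0.12 on the first component, while MEKi 0.3 replicate 4, at 53.7, lies among the Vehicle libraries, at 39.4 to 58.7.

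In MEKi 0.3 replicates 1 to 3, genes of neutrophils, macrophages and dividing cells were lower than in Vehicle, and genes of surface colonocytes, hormone-secreting cells and drug metabolism were higher. The median log2 ratio to the Vehicle mean in these 3 libraries was -1.84 to -1.57 for neutrophil genes, -0.69 to -0.52 for monocyte and macrophage genes, -1.07 to -0.58 for cell cycle genes, 0.71 to 1.00 for surface colonocyte genes and 1.13 to 1.51 for drug metabolism genes. The median of replicate 4 was lower for monocyte and macrophage genes too, at -0.33, although their summed level lay inside the Vehicle range. It stood at 0.06 for neutrophil genes, 0.02 for cell cycle genes, -0.09 for surface colonocyte genes and -0.25 for drug metabolism genes. The ERK feedback inhibitors Dusp6 and Spry4 passed in neither the paired nor the unpaired fit described below.

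Across all genes, a single gene differed between MEKi 0.3 and Vehicle when the groups were compared without pairing. It was Banp (chr8:121949750-122029258, plus strand in GENCODE M21 on mm10, protein coding), which encodes a nuclear protein that binds DNA. Its level was 21.5, 31.4, 24.6 and 44.4 CPM in MEKi 0.3, against 10.3, 11, 9.97 and 5.08 CPM in Vehicle. Every MEKi 0.3 library lay above every Vehicle library, and replicate 4 was the highest of all 8. The log2 fold change was 1.74 ± 0.25 (SE; adjusted p = 0.00577), where adjusted p-values come from edgeR's quasi-likelihood test with Benjamini-Hochberg adjustment over 14773 genes and the threshold is 0.05. That is 0.00677% of the genes tested for higher ones, and 0 genes were lower. At an unadjusted p below 0.05 there were 1628 higher genes (11.0%) and 1011 lower genes (6.84%). DESeq2 called 73 higher and 19 lower genes. Limma-voom called 1664 higher and 1639 lower of the same 14773 genes, so its calls within a list are common too. It gave replicate 4 a weight of 0.345, against 1.08 to 2.05 for its companions. Without Vehicle replicate 4 Banp missed the threshold, at a log2 fold change of 1.54 and an adjusted p of 0.0542, and no gene passed. In a fit of these groups alone it missed it too, with an adjusted p of 0.0899.

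Deviations from the group means correlated weakly between libraries of the same replicate number, at 0.126, 0.125, 0.167 and 0.184. MEKi 0.3 replicate 2 correlated more with Vehicle replicate 1, at 0.148, and the labels do not say what a number shares. With the number as a block in all 24 libraries, 1 gene was called. The comparison was also fitted with the replicate number as a block in the 8 libraries alone (the paired fit). It called 405 of 13635 genes (2.97%), 227 higher (1.66%) and 178 lower (1.31%), of which 124 differed by more than 2-fold. Leaving out MEKi 0.3 replicate 4 from the unpaired fit gave 1130 of 15025 genes (7.52%), 701 higher (4.67%) and 429 lower (2.86%). These fits shared 267 genes, or 65.9% of the paired calls and 23.6% of the other, all in the same direction in both. Both used the same Vehicle libraries and MEKi 0.3 replicates 1 to 3, so they are not independent and equal signs add no separate support. The named genes were picked partly for small p-values in these data. Of 79 genes described by name, 57 passed in the paired fit, and 47 of these passed without replicate 4 as well; the other 10, with the same sign, were Adck3, Chga, Csf3r, Ddit3, Gm12854, Ifi27l2a, Ighv3-6, Mcpt4, Slc5a8 and Sparc. The paired count was 1, 1 and 15 without pairs 1, 2 and 3, of which 0, 0 and 6 were among the 405. Without pair 4 it was 3572, with all 405 among them. At an unadjusted p below 0.05 the paired fit held 12.5% of all genes higher and 11.9% lower. Below, "rose" and "fell" refer to the paired fit unless another is named. Their counts within a list stand beside 1.66% of all genes that rose and 1.31% that fell. List counts in the fit without replicate 4 stand beside 4.67% of all genes higher and 2.86% lower. Groups that did not overlap were found for 640 genes higher in MEKi 0.3 (4.33%) and 520 lower (3.52%). The median log2 fold change of all genes was 0.01 in the unpaired fit.

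**Figure D2:**
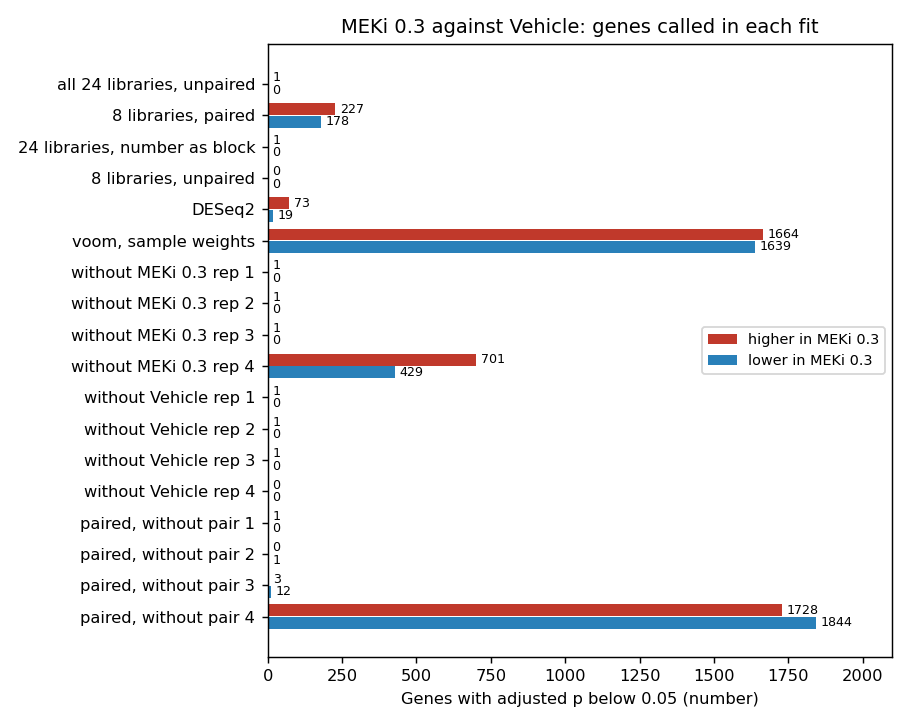
Number of genes higher and lower in MEKi 0.3 than in Vehicle at an adjusted p below 0.05 under each way of fitting the comparison. The unpaired fit of all 24 libraries called 1 gene, the paired fit 405 and the fit without MEKi 0.3 replicate 4 1130.

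A first group of genes had higher levels in every MEKi 0.3 library, replicate 4 included. They encode a transporter, factors of transcription and a signalling kinase. Slc5a3 (chr16:92058322-92087473, plus strand), which carries myo-inositol into cells with sodium, was at 36.2, 34.1, 47.8 and 36.4 CPM in MEKi 0.3, against 17.1, 19.9, 20.2 and 17.3 CPM in Vehicle. The lowest MEKi 0.3 library was well above the highest Vehicle library, and Slc5a3 rose with a log2 fold change of 1.05 ± 0.14 (adjusted p = 0.0147; unpaired 0.0629). Ccnt2, a cyclin partner of the elongation kinase CDK9, was at 45.1, 53, 51.5 and 56 CPM in MEKi 0.3, against 34.7, 35.3, 32.4 and 30.5 CPM in Vehicle. Its groups did not overlap and its spread within a group was small, for a log2 fold change of 0.63 ± 0.13 (adjusted p = 0.0403; unpaired 0.0721). Nfya, a subunit of the CCAAT-binding factor NF-Y, was at 35.7, 36.4, 49.3 and 41.2 CPM in MEKi 0.3, against 25.2, 27.3, 26.7 and 23.6 CPM in Vehicle. It rose by 0.65 ± 0.14 on the log2 scale (adjusted p = 0.043; unpaired 0.0731), again with no overlap. Pnpla1, a lipid-metabolising enzyme of the patatin family, was low throughout, at 4.68, 8.21, 4.76 and 5.58 CPM in MEKi 0.3, against 1.45, 1.14, 1.5 and 1.22 CPM in Vehicle. Its log2 fold change of 2.10 ± 0.35 (adjusted p = 0.0221; unpaired 0.0721) rested on few counts per Vehicle library.

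Genes of epithelial and stress regulation were among those with the same pattern. Hnf4g, a nuclear receptor of the intestinal epithelium, was at 20.6, 13.3, 15.5 and 16.7 CPM in MEKi 0.3, against 7.23, 7.41, 7.73 and 8.32 CPM in Vehicle. All MEKi 0.3 libraries lay above all Vehicle libraries, and Hnf4g rose by 1.10 ± 0.20 on the log2 scale (adjusted p = 0.0262; unpaired 0.152). Lgr4, the R-spondin receptor that amplifies Wnt signalling in crypts, was at 119, 109, 125 and 73 CPM in MEKi 0.3, against 43.6, 61.1, 62.1 and 46.5 CPM in Vehicle. Replicate 4 was the lowest of its group but still above every Vehicle library, and the log2 fold change was 0.99 ± 0.14 (adjusted p = 0.0147; unpaired 0.152). Map3k5, the stress-activated kinase ASK1, was at 27.7, 36.8, 32.5 and 24.3 CPM in MEKi 0.3, against 18.6, 17.1, 17.9 and 17.5 CPM in Vehicle. It rose by 0.76 ± 0.16 (adjusted p = 0.0389; unpaired 0.152) on that scale. Ptprn2, a protein of dense-core secretory vesicles in neuroendocrine cells, was at 22.7, 26.3, 23.6 and 11.9 CPM in MEKi 0.3, against 6.20, 8.92, 8.47 and 6.09 CPM in Vehicle. It rose by 1.49 ± 0.20 (adjusted p = 0.0147; unpaired 0.152), with replicate 4 nearest to Vehicle.

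**Figure D3:**
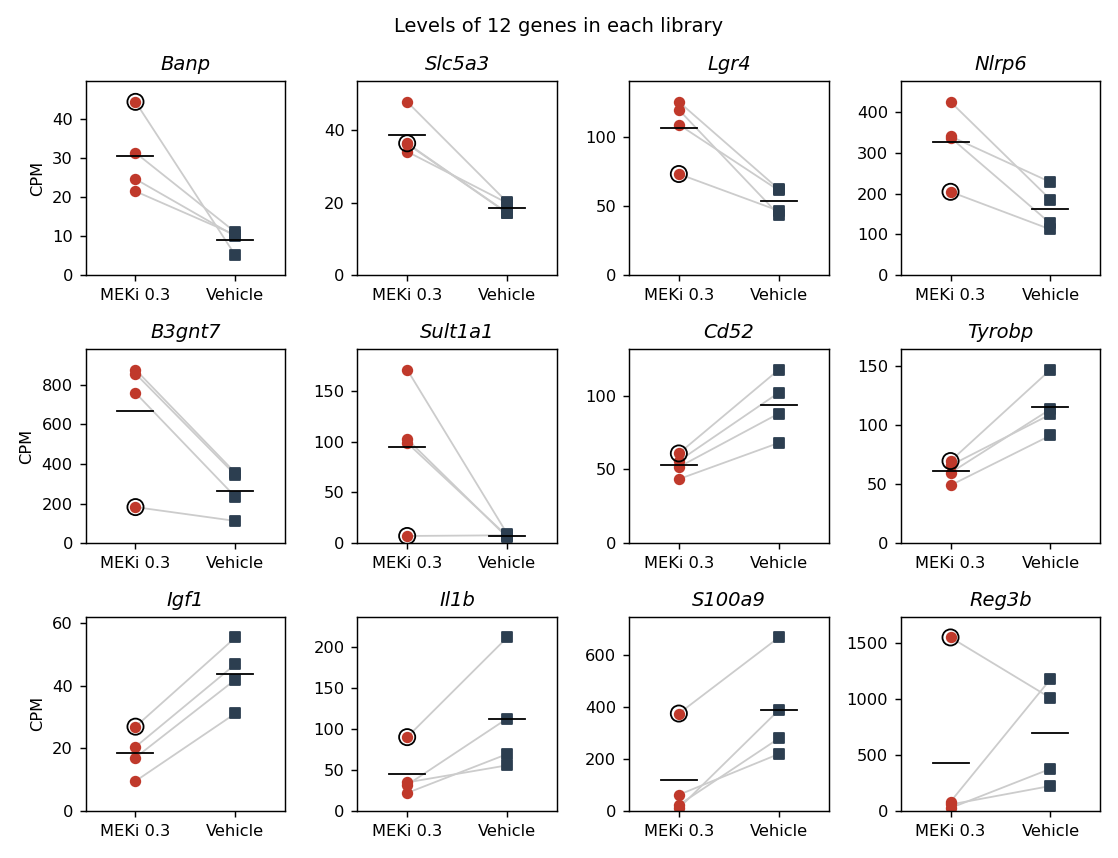
CPM of 12 genes in each library on linear axes from 0, MEKi 0.3 left of Vehicle, with 1 point per library, grey lines joining libraries of the same replicate number, bars at the means and a ring around MEKi 0.3 replicate 4. Banp and Slc5a3 do not overlap between the groups, while for others MEKi 0.3 replicate 4 lies closer to Vehicle than its companions do.

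Among the genes that fell, several are expressed by leukocytes. Cd52, a glycoprotein of the leukocyte surface, was at 51.7, 55.8, 43.5 and 60.9 CPM in MEKi 0.3, against 88, 102, 68 and 118 CPM in Vehicle. No MEKi 0.3 library reached the lowest Vehicle library, and Cd52 fell, with a log2 fold change of -0.81 ± 0.11 (adjusted p = 0.0147; unpaired 0.18). Tyrobp (chr7:30413760-30417585, plus strand), the signalling adaptor DAP12 of myeloid and NK cells, was at 59.5, 65.7, 48.8 and 69.4 CPM in MEKi 0.3, against 113, 109, 91 and 147 CPM in Vehicle. Its groups did not overlap either, and the log2 fold change was -0.90 ± 0.11 (adjusted p = 0.0147; unpaired 0.193). Pik3r6, a regulatory subunit of the leukocyte PI3 kinase gamma, was at 3.99, 3.16, 4.55 and 6.06 CPM in MEKi 0.3, against 8.88, 12.2, 7.48 and 15.6 CPM in Vehicle. It fell with a log2 fold change of -1.29 ± 0.26 (adjusted p = 0.0341; unpaired 0.152). Ass1, the argininosuccinate synthase of arginine synthesis, was at 42.3, 42.1, 45.9 and 62.3 CPM in MEKi 0.3, against 81.2, 77.3, 72.3 and 90.6 CPM in Vehicle, lower in all MEKi 0.3 libraries. Its log2 fold change was -0.75 ± 0.12 (adjusted p = 0.021; unpaired 0.18). Emp3 was at 19.1, 21.3, 18.4 and 27.4 CPM in MEKi 0.3, against 42.5, 39.3, 28.4 and 45.7 CPM in Vehicle, with replicate 4 just under the lowest Vehicle library and a log2 fold change of -0.85 ± 0.15 (adjusted p = 0.0254; unpaired 0.152). Penk, which encodes the opioid precursor proenkephalin, was at 9.01, 10.3, 10.8 and 5.82 CPM in MEKi 0.3, against 18.8, 23.9, 18.9 and 19.5 CPM in Vehicle. Replicate 4 held the lowest level of all 8 libraries, and Penk fell with a log2 fold change of -1.18 ± 0.20 (adjusted p = 0.0221; unpaired 0.152).

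Further genes with small p-values in one of the fits were of varied kinds. Ighv3-6, an immunoglobulin heavy chain variable segment that relatives may share reads with, had the smallest adjusted p of the named genes in the paired fit. It was at 15.9, 3.16, 0.414 and 0 CPM in MEKi 0.3, against 149.7, 36.1, 0.748 and 2.84 CPM in Vehicle. The segment fell, with a log2 fold change of -3.30 ± 0.28 (adjusted p = 0.0032; unpaired 0.252), while its level ranged widely within each group and the groups overlapped. Ankrd10, at 54.3, 56.4, 50.3 and 45.8 CPM in MEKi 0.3, against 26.2, 31.9, 27.7 and 29.4 CPM in Vehicle, rose by 0.85 ± 0.13 on the log2 scale (adjusted p = 0.0173; unpaired 0.152) with no overlap. Cped1 (1.21 ± 0.28, adjusted p = 0.0474), Adck3 (1.55 ± 0.22, 0.0147), the transporter family member Slc10a5 (2.10 ± 0.30, 0.0147) and the Riken gene 2310079G19Rik (2.82 ± 0.38, 0.0147) rose too. The groups overlapped for Slc10a5 and 2310079G19Rik, each with an unpaired adjusted p of 0.193. In pair 4, 2310079G19Rik had 2 counts in MEKi 0.3 against 1 in Vehicle. Ifi27l2a, an interferon-inducible gene, was at 53.2, 37.5, 44.9 and 64.8 CPM in MEKi 0.3, against 86.1, 70.4, 73.5 and 131 CPM in Vehicle. The gene fell by the paired fit, with a log2 fold change of -0.83 ± 0.12 (adjusted p = 0.0147), as did B4galt6, a glycosyltransferase (-0.60 ± 0.13, 0.0458), Cfap43, a cilium protein (-0.86 ± 0.20, 0.0493), and the predicted gene Gm12854 (-1.09 ± 0.14, 0.0147). Pphln1, at -0.63 ± 0.15, missed the paired threshold (adjusted p = 0.0549).

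Of 17 neutrophil genes in the paired fit, 7 fell and 0 rose, against 1.31% of all genes that fell. They included Csf3r, the formyl peptide receptor Fpr1 and Irg1. That fit held 13 of the 17 lower and 0 higher at an unadjusted p below 0.05, beside 11.9% and 12.5% of all genes. In bulk tissue, fewer cells of a type and less RNA per cell cannot be told apart. The unpaired median log2 fold change over 20 neutrophil genes was -1.15, beside 0.01 for all genes, and -2.01 without replicate 4. By library the median ratio to the Vehicle mean was -1.57, -1.84, -1.70 and 0.06 on the log2 scale, so replicate 4 alone stood level with Vehicle. Csf3r, the receptor for the neutrophil growth factor G-CSF, was at 33.5, 24.8, 27.9 and 41.5 CPM in MEKi 0.3, against 59.5, 62.9, 47.9 and 94.8 CPM in Vehicle, with no overlap. It fell with a log2 fold change of -1.03 ± 0.14 (adjusted p = 0.0147; unpaired 0.266). Irg1, which makes the antibacterial metabolite itaconate in activated myeloid cells, was at 5.03, 3.79, 5.79 and 15.5 CPM in MEKi 0.3, against 25.2, 17.5, 7.98 and 41.6 CPM in Vehicle. Replicates 1 to 3 lay below every Vehicle library and replicate 4 inside the Vehicle range, for a log2 fold change of -1.62 ± 0.29 (adjusted p = 0.029; unpaired 0.193).

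The calprotectin subunits, which neutrophils carry in their cytosol, varied widely between libraries. S100a9 was at 23.2, 10.3, 62.1 and 375 CPM in MEKi 0.3, against 279, 389, 219 and 668 CPM in Vehicle. Replicates 1 to 3 were lower than all Vehicle libraries and replicate 4 was within them. The paired fit gave an adjusted p of 0.219, and without replicate 4 the unpaired log2 fold change was -3.61 ± 0.98 (adjusted p = 0.0393). Its partner S100a8, at 36.9, 18.9, 75.9 and 178 CPM in MEKi 0.3, against 190.4, 246, 164 and 243 CPM in Vehicle, passed in neither fit (adjusted p = 0.216 paired and 0.0639 without replicate 4). Lcn2, an iron-sequestering protein of neutrophils and inflamed epithelium, was at 56, 25.7, 68.1 and 264 CPM in MEKi 0.3, against 196, 209, 170.0 and 345 CPM in Vehicle. It passed without replicate 4 and in neither other fit, with a log2 fold change of -2.20 ± 0.62 (adjusted p = 0.0436; paired 0.148).

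Of 19 monocyte and macrophage genes, 7 fell and 0 rose: Cd68, Lyz2, Aif1, Ly6c2, Fcgr3, Tyrobp and Fcer1g. Their unpaired median was -0.56, and -0.73 without replicate 4. The paired fit held 15 of the 19 lower and 0 higher at an unadjusted p below 0.05, beside 11.9% and 12.5% of all genes. By the median, replicate 4 lay on the same side as its companions, the ratio to Vehicle by library being -0.52, -0.63, -0.69 and -0.33 on the log2 scale. Summed, these genes were at 2515, 2787, 2561 and 3703 CPM in MEKi 0.3, against 3614, 4057, 3325 and 5126.5 CPM in Vehicle. By that sum replicate 4 lay inside the Vehicle range. Aif1, an actin-binding protein of macrophages, was at 21.3, 21.7, 22.6 and 34.2 CPM in MEKi 0.3, against 36.6, 44.2, 42.4 and 53.8 CPM in Vehicle. All 4 MEKi 0.3 libraries were below all Vehicle libraries, and the log2 fold change was -0.84 ± 0.13 (adjusted p = 0.021; unpaired 0.193). The 8 dendritic cell genes held 0 calls in the paired edgeR fit, where 1 was lower at an unadjusted p below 0.05 (11.9% of all genes were), 0 with DESeq2 and 1 lower with limma-voom.

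Of the inflammatory mediators, Il1b and Ccl2 were the 2 that fell among 22 TNF and NF-kB target genes. Il1b (chr2:129364570-129371139, minus strand), the cytokine interleukin-1 beta, was at 31.7, 21.9, 34.8 and 90.0 CPM in MEKi 0.3, against 113, 69.3, 55.6 and 212 CPM in Vehicle. Replicates 1 to 3 lay under every Vehicle library and replicate 4 inside the Vehicle range. The log2 fold change was -1.35 ± 0.18 (adjusted p = 0.0147; unpaired 0.217). Ccl2, a chemokine that attracts monocytes, was at 12.5, 6.94, 11 and 24 CPM in MEKi 0.3, against 38.4, 27.2, 17.4 and 35.7 CPM in Vehicle, for a log2 fold change of -1.18 ± 0.24 (adjusted p = 0.0402; unpaired 0.193). Its replicate 4 lay within the Vehicle range. Tnf, the cytokine tumour necrosis factor, was at 26, 21.7, 19.9 and 50.9 CPM in MEKi 0.3, against 46.7, 44.1, 25.9 and 32.9 CPM in Vehicle. The groups overlapped and neither fit passed (adjusted p = 0.383 paired, 0.721 unpaired). Il6 and Il17a had too few counts for the filter and were not tested.

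The lists of T cell, interferon-gamma and type I interferon genes held no paired call, although the interferon-inducible Ifi27l2a, outside them, fell. Of 19 T cell genes 0 passed in the paired edgeR fit, where 8 were lower and 0 higher at an unadjusted p below 0.05, beside the 11.9% of all genes lower there. DESeq2 called 0 of them and limma-voom 8 lower, where limma-voom called 1639 of all 14773 genes lower. The unpaired median was -0.49, and leaving out replicate 4 gave 1 call. Cd3g, a chain of the CD3 complex, was at 9.71, 12, 9.73 and 15.3 CPM in MEKi 0.3, against 18, 18, 15.5 and 23.8 CPM in Vehicle. The groups did not overlap, and the paired log2 fold change of -0.69 ± 0.17 missed the threshold (adjusted p = 0.055; unpaired 0.213). For the 30 genes that respond to interferon-gamma the median was 0.01 and 0 passed in the paired edgeR fit, with 2 higher and 3 lower at an unadjusted p below 0.05, shares no larger than those of all genes, 0 called by DESeq2, and 1 higher and 1 lower called by limma-voom. Summed over the list, MEKi 0.3 replicate 4 held the highest level of the 8 libraries, with 10165, 8323, 8846 and 12554 CPM in MEKi 0.3, against 9932, 11011, 10186 and 10134 CPM in Vehicle. The 22 type I interferon genes had a median of 0.15 and 0 calls in the paired edgeR fit. It held 2 of them higher and 1 lower at an unadjusted p below 0.05, beside 12.5% and 11.9% of all genes. DESeq2 called 0 of them, and limma-voom 1 higher and 1 lower. The 10 MHC class II genes had a median of -0.09 and 0 calls with edgeR, DESeq2 or limma-voom, and 1 was higher at an unadjusted p below 0.05 in the paired fit. Ciita, their master regulator, was at 131, 109, 87.3 and 76.4 CPM in MEKi 0.3, against 67.5, 72.3, 63.6 and 65.6 CPM in Vehicle. It was higher in every MEKi 0.3 library, with a paired log2 fold change of 0.56 ± 0.13 and an adjusted p of 0.0515 that missed the threshold.

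Mast cell and eosinophil genes were mixed in direction. At an unadjusted p below 0.05 in the unpaired fit, 2 of 6 were higher and 1 lower, beside 11.0% and 6.84% of all genes. The paired fit held 1 call, Mcpt4. Mcpt4, a protease of connective tissue mast cells, was at 1.39, 3.58, 1.86 and 1.46 CPM in MEKi 0.3, against 6.20, 6.65, 8.22 and 5.28 CPM in Vehicle. The gene fell, with a log2 fold change of -1.69 ± 0.33 (adjusted p = 0.0328; unpaired 0.193), and did not pass without replicate 4 (adjusted p = 0.11). Cma1, a mast cell chymase, was at 9.71, 4.84, 11.6 and 0.728 CPM in MEKi 0.3, against 0.826, 3.23, 1.5 and 1.62 CPM in Vehicle. Its replicates 1 to 3 lay above all Vehicle libraries and replicate 4 below all of them. It did not pass in the paired fit (adjusted p = 0.164) and passed without replicate 4, with a log2 fold change of 2.25 ± 0.51 (adjusted p = 0.0275).

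Stromal and vascular genes included several with large differences. Igf1, the growth factor insulin-like growth factor 1, was at 20.5, 17, 9.52 and 26.9 CPM in MEKi 0.3, against 46.9, 42, 31.2 and 55.4 CPM in Vehicle, with no overlap. It fell with a log2 fold change of -1.29 ± 0.15 (adjusted p = 0.0136; unpaired 0.193). Igfbp5, which binds IGF in the matrix, was at 233, 179.7, 151 and 367 CPM in MEKi 0.3, against 868, 500.2, 336 and 709.6 CPM in Vehicle. It fell by a like amount, -1.37 ± 0.16 (adjusted p = 0.0136; unpaired 0.193), with replicate 4 above the lowest Vehicle library. Lpl, the lipoprotein lipase of vessel walls and macrophages, was at 21.1, 14.5, 20.5 and 50.0 CPM in MEKi 0.3, against 74.8, 46.3, 48.9 and 86.9 CPM in Vehicle. Sod3, the extracellular superoxide dismutase, was at 80.6, 64.2, 63.7 and 119.6 CPM in MEKi 0.3, against 166, 161, 131 and 188 CPM in Vehicle. Both fell, Lpl with a log2 fold change of -1.37 ± 0.18 (adjusted p = 0.0147; unpaired 0.193) and Sod3 with one of -1.01 ± 0.13 (adjusted p = 0.0147; unpaired 0.193). Plvap, a diaphragm protein of fenestrated endothelium, was at 81, 79.3, 62.7 and 112 CPM in MEKi 0.3, against 173, 133, 112 and 138 CPM in Vehicle. It was the 1 of 12 endothelial genes that fell (log2 fold change -0.74 ± 0.14, adjusted p = 0.0309; unpaired 0.193). Collagen and matrix genes had a median of -0.39, and 3 of 18 fell, Col1a1, Col4a1 and Sparc, beside 1.31% of all genes. Sparc, a matrix protein of fibroblasts, was at 259.9, 184, 219 and 293 CPM in MEKi 0.3, against 444, 269, 318 and 554 CPM in Vehicle. Timp1, an inhibitor of matrix proteases, was at 4.85, 4.42, 5.38 and 13.1 CPM in MEKi 0.3, against 42.8, 19.6, 8.72 and 30.7 CPM in Vehicle. Replicates 1 to 3 lay below all Vehicle libraries, and the paired fit just missed the threshold (log2 fold change -1.84 ± 0.38, adjusted p = 0.0517). Of 14 proteases and inhibitors of the matrix, Mmp10 and Mmp12 fell, beside the same 1.31% of all genes. Smooth muscle genes had a median of 0.40 over 12 genes and 0.56, 0.59, 0.78 and -0.28 by library. None of them passed in the paired edgeR fit, where 3 were higher and 0 lower at an unadjusted p below 0.05. DESeq2 called 0 and limma-voom 7 higher, where limma-voom called 1664 of all 14773 genes higher.

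Several genes that rose are expressed by the epithelium. The same libraries held lower levels of leukocyte genes, smooth muscle genes were higher in replicates 1 to 3 as well, and the part of either in the epithelial levels was not tested. B3gnt7, a glycosyltransferase that extends sugar chains, was at 759.8, 857, 877 and 182 CPM in MEKi 0.3, against 234, 345, 355 and 112 CPM in Vehicle. The 3 companions of replicate 4 were above all Vehicle libraries and replicate 4 within the Vehicle range, though above its own numbered Vehicle library. The log2 fold change was 1.26 ± 0.16 (adjusted p = 0.0147; unpaired 0.193). Fgfr3, a receptor for fibroblast growth factors, was at 24.3, 23.6, 17.6 and 6.06 CPM in MEKi 0.3, against 4.13, 8.35, 4.74 and 1.42 CPM in Vehicle. Cth, an enzyme that makes cysteine, was at 41.6, 45.5, 48.8 and 15 CPM in MEKi 0.3, against 15.3, 14.1, 17.9 and 8.32 CPM in Vehicle. Clic5, a protein of microvilli, was at 332, 359, 391 and 142 CPM in MEKi 0.3, against 128, 215, 185 and 89.3 CPM in Vehicle. In each, replicate 4 lay inside the Vehicle range and above Vehicle replicate 4. Their log2 fold changes were 1.97 ± 0.23 for Fgfr3 (adjusted p = 0.0136), 1.40 ± 0.17 for Cth (0.0136) and 0.97 ± 0.14 for Clic5 (0.0147). Nlrp6, an inflammasome sensor of colon epithelium, was at 337, 424, 340.0 and 204 CPM in MEKi 0.3, against 127, 185, 228 and 112 CPM in Vehicle and rose by 1.02 ± 0.14 (adjusted p = 0.0147; unpaired 0.193) on the log2 scale. Pigr, the receptor that carries IgA across the epithelium, was at 4799, 4853, 5042 and 1787 CPM in MEKi 0.3, against 1538, 2217, 2553 and 1583 CPM in Vehicle. It rose with a log2 fold change of 0.99 ± 0.21 (adjusted p = 0.0493; unpaired 0.193), and was the 1 of 16 epithelial defence genes called in the paired fit. The median of that list was -0.32, and without replicate 4 it held 3 higher and 2 lower calls. Wfdc18, a secreted protein with a WAP domain, went the other way, at 13.7, 9.89, 9.93 and 32.7 CPM in MEKi 0.3, against 50.0, 45.4, 34.4 and 79.8 CPM in Vehicle. It fell with a log2 fold change of -1.76 ± 0.17 (adjusted p = 0.00509; unpaired 0.193), with no overlap.

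Surface colonocyte genes had a median log2 fold change of 0.68, beside 0.01 for all genes, and 0.81 without replicate 4. By library it was 0.72, 1.00, 0.71 and -0.09. Of 19 members Car4 and Slc5a8 rose, against 1.66% of all genes that rose. Slc5a8, a transporter of butyrate and other short-chain acids, was at 224, 218, 196 and 161 CPM in MEKi 0.3, against 90.3, 146, 159 and 99.9 CPM in Vehicle. Every MEKi 0.3 library exceeded every Vehicle library, and the log2 fold change was 0.72 ± 0.15 (adjusted p = 0.0403; unpaired 0.193). Aqp8, the water channel of surface cells, was at 543, 542, 583 and 42.9 CPM in MEKi 0.3, against 44.6, 112, 109 and 55.4 CPM in Vehicle. Replicates 1 to 3 were far above Vehicle and replicate 4 was the lowest of all, and the paired fit did not pass (log2 fold change 2.08 ± 0.81, adjusted p = 0.241).

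Goblet cell genes had a median of 0.21, and 1 of 16 rose, Atoh1, the transcription factor that commits cells to the secretory lineage, at 71.9, 69.7, 77.2 and 35.7 CPM in MEKi 0.3, against 40.1, 29.2, 42.6 and 25.4 CPM in Vehicle. Its log2 fold change was 0.87 ± 0.14 (adjusted p = 0.0221; unpaired 0.18). Without replicate 4 there were 6 goblet genes called higher and 0 lower, beside 4.67% and 2.86% of all genes. Zg16, a lectin of the mucus layer, was at 2662, 3151, 3284 and 629 CPM in MEKi 0.3, against 508, 945, 1088 and 1229 CPM in Vehicle, with replicate 4 inside the Vehicle range (paired adjusted p = 0.368; without replicate 4 log2 fold change 1.69 ± 0.49, adjusted p = 0.0439). Enteroendocrine genes had a median of 0.93, and 2 of 10 rose, Chga and Pyy, beside 1.66% of all genes. Chga, a granule protein of hormone-secreting cells, was at 36.6, 62.1, 44.5 and 17.9 CPM in MEKi 0.3, against 12.4, 17.1, 19.2 and 14.4 CPM in Vehicle. It rose with a log2 fold change of 1.28 ± 0.23 (adjusted p = 0.0309; unpaired 0.193), though replicate 4 was within the Vehicle range.

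Drug-metabolising enzymes had an unpaired median of 1.08 over 17 genes and 1.32 without replicate 4, and 1.13, 1.28, 1.51 and -0.25 by library. In the paired fit 3 of 14 rose, Cyp3a13, Ces2a and Ugt2b34, and 0 fell. The sulfotransferase Sult1d1, outside that list, was at 54.4, 43.8, 59.2 and 10.2 CPM in MEKi 0.3, against 11.6, 12.3, 13 and 6.70 CPM in Vehicle and rose by 1.81 ± 0.24 (adjusted p = 0.0147; unpaired 0.193) on the log2 scale. The related Sult1a1 was at 102, 171, 98.7 and 7.03 CPM in MEKi 0.3, against 5.78, 9.30, 6.98 and 7.72 CPM in Vehicle. Replicates 1 to 3 were far above every Vehicle library and replicate 4 was inside the Vehicle range, and the paired log2 fold change of 3.31 ± 0.88 did not pass (adjusted p = 0.141). The efflux pump Abcg2 did not pass in the paired fit either (log2 fold change 1.47 ± 0.42, adjusted p = 0.121), at 73, 48.4, 66.2 and 11.6 CPM in MEKi 0.3, against 12.2, 22.4, 17.4 and 12.2 CPM in Vehicle. Fatty acid oxidation genes had a median of 0.35, and 2 of 16 rose. One was Ppargc1a, the coactivator PGC-1alpha of mitochondrial genes, at 21.5, 36.6, 19.2 and 6.55 CPM in MEKi 0.3, against 6.61, 9.87, 7.73 and 3.86 CPM in Vehicle (log2 fold change 1.5 ± 0.22, adjusted p = 0.0147; unpaired 0.193). The other was Acadm, a mitochondrial acyl-CoA dehydrogenase, at 108, 122, 119 and 70.8 CPM in MEKi 0.3, against 65.1, 69.3, 74 and 60.1 CPM in Vehicle (log2 fold change 0.63 ± 0.13, adjusted p = 0.0375; unpaired 0.193).

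ERK output genes, the closest transcript readout of the pathway that the drug targets, held a single paired call. Of 17 ERK output and feedback genes in the paired fit, 1 fell, beside 1.31% of all genes, and 0 rose. Their unpaired median over 19 genes was -0.20. Ier3, an early gene induced by growth factors, was that 1, at 18.4, 16.6, 16.3 and 30.8 CPM in MEKi 0.3, against 43.4, 36.6, 30.7 and 50.6 CPM in Vehicle. It fell with a log2 fold change of -0.99 ± 0.15 (adjusted p = 0.0161; unpaired 0.18), and replicate 4 was just above the lowest Vehicle library. At an unadjusted p below 0.05 the paired edgeR fit held 1 higher and 4 lower of the 17 genes, beside 12.5% and 11.9% of all genes. DESeq2 called 1 gene of the list lower, and limma-voom 2 higher and 3 lower. Dusp6, the phosphatase that inactivates ERK, was at 75.9, 88.8, 43.9 and 66.5 CPM in MEKi 0.3, against 56.4, 65.9, 54.1 and 54 CPM in Vehicle. Its groups overlapped, and its log2 fold change was 0.23 ± 0.14 (adjusted p = 0.35). Spry4, a Sprouty inhibitor, was at 14.2, 15.2, 12.8 and 15.3 CPM in MEKi 0.3, against 8.67, 20.3, 16.7 and 11.6 CPM in Vehicle, with a paired log2 fold change of 0.06 ± 0.22 (adjusted p = 0.89). Its unpaired log2 fold change was 0.0045, with a sign that depended on the scaling. Spry2, at 38.1, 42.5, 33.1 and 21.3 CPM in MEKi 0.3, against 22.9, 25.8, 24.9 and 18.3 CPM in Vehicle, changed by 0.54 ± 0.15 on the log2 scale (adjusted p = 0.0734), short of the threshold, and passed without replicate 4 (0.72 ± 0.20, adjusted p = 0.0385).

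The other ERK reporters described here did not pass in the paired fit. Etv4, an ETS factor switched on by ERK, was at 9.88, 11.4, 7.24 and 6.55 CPM in MEKi 0.3, against 20.2, 14.1, 13.2 and 13.2 CPM in Vehicle. It was lower in all MEKi 0.3 libraries, with a log2 fold change of -0.79 ± 0.20 (adjusted p = 0.0633; unpaired 0.222). Phlda1 was at 45.6, 57, 45.1 and 123 CPM in MEKi 0.3, against 71.3, 83, 137 and 100.5 CPM in Vehicle, with replicate 4 within the Vehicle range and an adjusted p of 0.248. Egr1, an immediate early transcription factor, was at 26, 27.8, 21.9 and 24.7 CPM in MEKi 0.3, against 28.5, 33.8, 26.2 and 43.7 CPM in Vehicle (log2 fold change -0.37 ± 0.15, adjusted p = 0.178), and Jun at 95.2, 111, 75.5 and 99.4 CPM in MEKi 0.3, against 72.5, 84.7, 76.5 and 76.5 CPM in Vehicle (log2 fold change 0.29 ± 0.12, adjusted p = 0.164). The 15 immediate early genes held 0 calls in the paired edgeR fit, where 2 were higher and 1 lower at an unadjusted p below 0.05 (12.5% and 11.9% of all genes were), and 0 with DESeq2 or limma-voom. Areg, the EGF receptor ligand amphiregulin, was at 10.1, 17, 8.48 and 37.6 CPM in MEKi 0.3, against 27.7, 28.1, 40.9 and 50.8 CPM in Vehicle (log2 fold change -1.15 ± 0.28, adjusted p = 0.0689; without replicate 4 -1.64 ± 0.45, adjusted p = 0.038). Of 26 components of the pathway, Erbb2, a receptor of the EGF family, was the 1 that rose, at 159, 196, 139.7 and 84.9 CPM in MEKi 0.3, against 94.8, 91.7, 99.4 and 74.1 CPM in Vehicle (log2 fold change 0.64 ± 0.15, adjusted p = 0.0492; unpaired 0.193). At an unadjusted p below 0.05 the paired edgeR fit held 6 higher and 2 lower of these 26 components. DESeq2 called 0 of them, and limma-voom 4 higher and 2 lower. Fosl1 was below the filter and was not tested.

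Cell cycle genes fell in 4 of 26 cases and rose in 0: Ccnb1, Cdk1, Bub1b and Aurka. Their unpaired median was -0.53, and -0.86 without replicate 4, with -0.75, -1.07, -0.58 and 0.02 by library. The paired fit held 22 of the 26 lower and 0 higher at an unadjusted p below 0.05, beside 11.9% and 12.5% of all genes. Ccnb1, the cyclin that drives entry into mitosis, was at 34, 24.6, 37.2 and 61.8 CPM in MEKi 0.3, against 74.6, 65.9, 76.5 and 83.9 CPM in Vehicle, with no overlap, and fell with a log2 fold change of -0.99 ± 0.16 (adjusted p = 0.0199; unpaired 0.193). Aurka, a mitotic kinase, was at 27, 22.3, 34.1 and 67.9 CPM in MEKi 0.3, against 65.3, 70.3, 71.3 and 76.7 CPM in Vehicle. Replicate 4 was inside the Vehicle range and its companions were at or below 34.1 CPM, for a log2 fold change of -1.02 ± 0.22 (adjusted p = 0.0492; unpaired 0.224). Fam64a, another gene of dividing cells, was at 10.6, 8.84, 11.6 and 12.9 CPM in MEKi 0.3, against 29.7, 26.8, 22.7 and 23.8 CPM in Vehicle. All 4 MEKi 0.3 libraries were below all Vehicle libraries, and the log2 fold change was -1.23 ± 0.18 (adjusted p = 0.0147; unpaired 0.175). Crypt stem cell and Wnt target genes had a median of 0.13. The 1 of 13 that fell was Cd44, an adhesion receptor also carried by leukocytes, at 47, 46.9, 42.8 and 72.8 CPM in MEKi 0.3, against 83, 81.8, 56.1 and 93.8 CPM in Vehicle (log2 fold change -0.59 ± 0.13, adjusted p = 0.0422; unpaired 0.193).

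Genes of the unfolded protein response differed in direction between MEKi 0.3 libraries. Their sum was 3358, 3301, 3855 and 7125 CPM in MEKi 0.3, against 5365, 5780.4, 6508 and 4935 CPM in Vehicle, and replicate 4 was the highest of all 8 libraries. Their median by library was -0.74, -0.77, -0.54 and 0.36 on the log2 scale. Ddit3, the stress transcription factor CHOP, was the 1 of 16 called in the paired fit, where it rose, at 19.9, 14.7, 20.5 and 22.6 CPM in MEKi 0.3, against 11.6, 9.30, 12 and 15.4 CPM in Vehicle (log2 fold change 0.69 ± 0.16, adjusted p = 0.0497; unpaired 0.193). Without replicate 4 it did not pass (adjusted p = 0.0964), and the list median was -0.70. In that fit 6 of the 16 genes were called lower and 0 higher, beside 2.86% and 4.67% of all genes. With limma-voom 10 were lower and 1 higher, beside 1639 and 1664 of all 14773 genes. Reg3b, a bactericidal lectin of inflamed epithelium, showed the same split, at 57.4, 82.3, 25.9 and 1550.4 CPM in MEKi 0.3, against 223, 1178, 376 and 1009 CPM in Vehicle. Replicate 4 was the highest library and its companions the lowest 3 (paired log2 fold change -2.34 ± 1.13, adjusted p = 0.317).

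**Figure D4:**
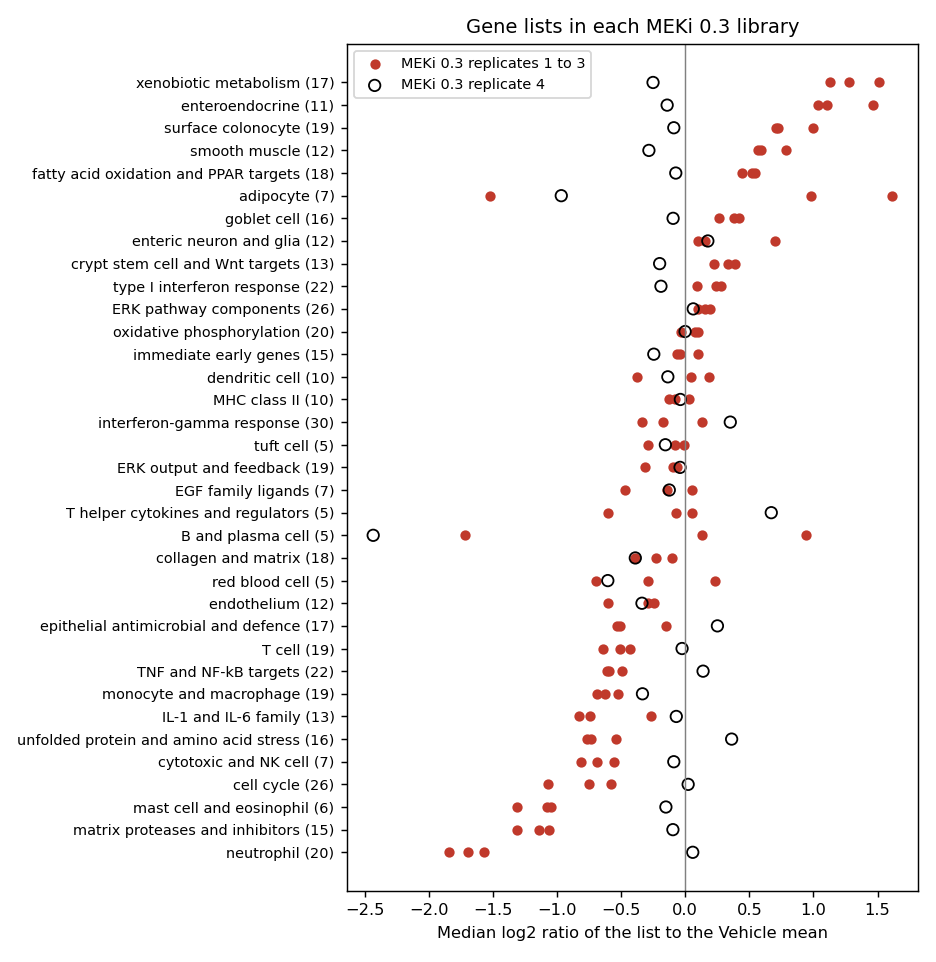
Median log2 ratio of each gene list to its Vehicle mean in each MEKi 0.3 library, with 1 point per library. For neutrophil genes replicates 1 to 3 lie between -1.84 and -1.57 and replicate 4 at 0.06, while for monocyte and macrophage genes all 4 lie between -0.69 and -0.33.

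Between the doses no gene passed the threshold. Comparing MEKi 1 with MEKi 0.3 directly gave 0 of 14773 genes in edgeR, with 225 higher (1.52%) and 416 lower (2.82%) at an unadjusted p below 0.05. DESeq2 called 2 genes and limma-voom 0. A difference that missed the threshold does not show that the doses acted alike. Against Vehicle, MEKi 1 differed in 898 higher (6.08%) and 667 lower genes (4.51%), a comparison that shares the Vehicle libraries with that of MEKi 0.3. Il1b was at 6.19, 28.3, 12.5 and 10.7 CPM in MEKi 1, with a log2 difference from MEKi 0.3 of -1.60 ± 0.56. Tyrobp was at 30.5, 52.3, 38.9 and 15.9 CPM in MEKi 1 (log2 difference -0.81 ± 0.28), and S100a9 at 2.98, 50.4, 14.3 and 28.4 CPM (-2.28 ± 1.03). Without MEKi 0.3 replicate 4, the log2 fold change of S100a9 against Vehicle was -3.61 ± 0.98 in MEKi 0.3, beside -4.01 in MEKi 1. No MEKi 1 library was left out for this value or for the medians that follow. On the first principal component MEKi 1 libraries lay at -37.0, 20.3, -28.2 and -3.77, so its replicate 2 lay nearest to Vehicle. The median over neutrophil genes against Vehicle was -2.83 in MEKi 1 and -1.15 in MEKi 0.3, or -2.01 without replicate 4, and over monocyte and macrophage genes -1.32 in MEKi 1 and -0.56 in MEKi 0.3, or -0.73 without replicate 4. Banp was at 29.1, 37.9, 27.4 and 40.9 CPM in MEKi 1 (log2 difference 0.15 ± 0.24), and Pigr at 5798, 3664, 5969.8 and 5075 CPM (0.32 ± 0.33). Dusp6 was at 60.3, 82.3, 60.9 and 58.2 CPM in MEKi 1 (log2 difference -0.07 ± 0.22).

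**Figure D5:**
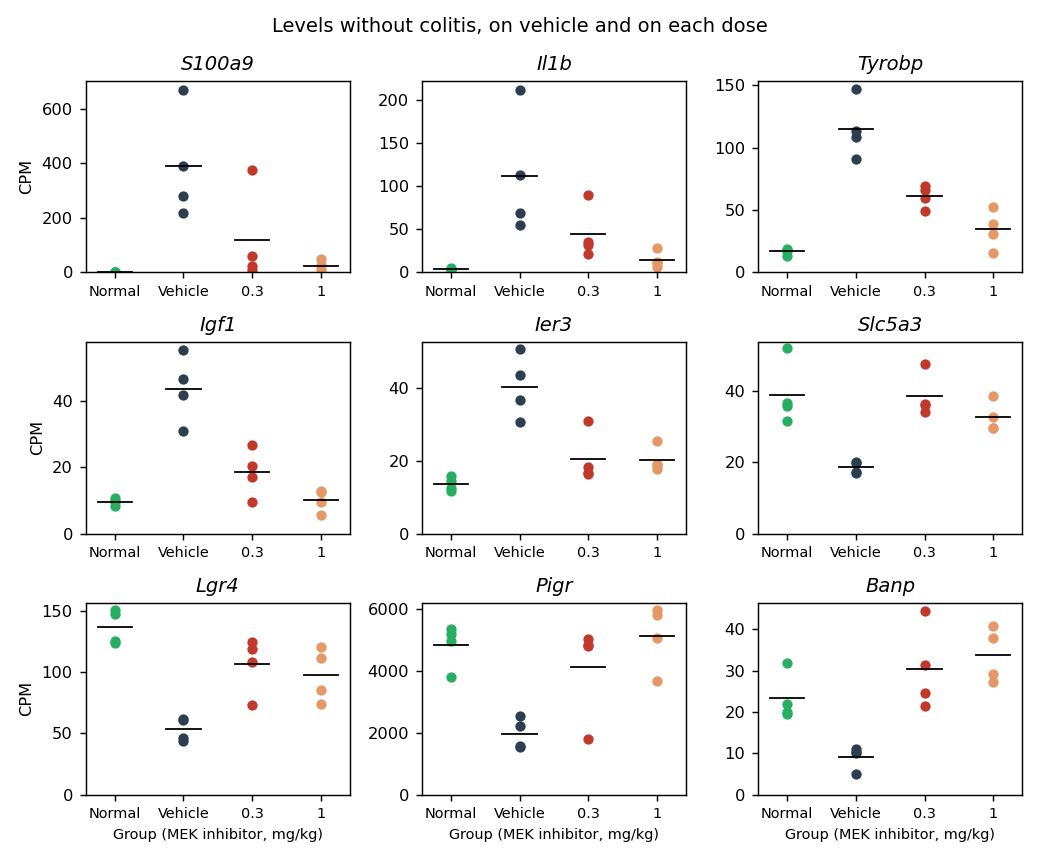
CPM of 9 genes on linear axes from 0 in untreated SCID mice (Normal), Vehicle, MEKi 0.3 and MEKi 1, with 1 point per library and bars at the means of 4 libraries. Banp is higher in all libraries of both doses than in Vehicle, while Il1b and S100a9 in MEKi 0.3 replicate 4 lie at the level of Vehicle.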

How the data were processed

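Poly(A) RNA of mouse colon was sequenced in 24 libraries, and the authors deposited a file of raw counts for each sample, covering 43280 gene symbols. The submitters' processing notes name mm10. Which aligner, counting program and annotation were used is not given in the sources used here, nor is strand handling, so gene copies and overlapping genes may share reads. Counts were used as deposited, with groups from each sample's own file. In the table of the whole series, 16 of 24 columns carry a name that differs from the sample whose file holds their values, so it served as an alternative only. No replicates were duplicates: chi-square values per gene lay between 6.26 and 32.8.

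Genes were tested in R 4.3.3 with edgeR 4.0.16: filterByExpr, TMM factors and a robust quasi-likelihood fit of all 24 libraries by group, with F tests and Benjamini-Hochberg adjustment. An SE was obtained by dividing the size of a log2 fold change by the root of its F statistic. The paired fit used the 8 libraries with the replicate number as a block. The labels do not say what a number shares. Correlations of deviations from the group means were 0.126, 0.125, 0.167 and 0.184 for same-numbered libraries, all above the 0.1 set as the limit, although MEKi 0.3 replicate 2 correlated more with Vehicle replicate 1 (0.148). DESeq2 1.42.0, limma-voom (limma 3.58.1) with sample weights, other scalings and filters, length offsets from GENCODE M21, the table's names and leaving out each library were alternatives. Leaving out each pair was added after the data were seen. Scripts were tested on simulated data.

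The members, 38 gene lists and tests were chosen with earlier results of these data known. Named genes were those called, up to 12 per direction in the paired fit, the 10 higher and 10 lower with the smallest p in the unpaired fit, the 2 smallest p of each list, and a fixed set of inflammation and ERK genes. List members named beyond these were chosen after their values were seen. Not every gene picked by this rule, those of the fixed set included, nor every list member that passed, is described by name.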

Additional observations from a re-analysis of the deposited data

Results flagged for a closer look

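Within each group of 4 libraries, the highest or lowest library was compared with its neighbours by Dixon's ratio at its 95% critical value, for the genes named in the text and the summed level of each gene list. For independent groups chance gives about 1 in 20, but the groups tested here share libraries, and some genes were named for small p-values. That share is thus no benchmark for the count that follows. Of 230 groups tested, 24 held a library apart. MEKi 0.3 replicate 4 was that library in 18 of them, Vehicle replicate 4 in 1 and other libraries in 5.

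Among genes, MEKi 0.3 replicate 4 stood above its companions for Wfdc18 (32.7 CPM, against 9.89 to 13.7 CPM in the other 3), Ier3 (30.8 CPM, against 16.3 to 18.4 CPM in the other 3) and Irg1 (15.5 CPM, against 3.79 to 5.79 CPM in the other 3). It was also above them for Aif1 (34.2 CPM, against 21.3 to 22.6 CPM in the other 3), Timp1 (13.1 CPM, against 4.42 to 5.38 CPM in the other 3) and Cd44 (72.8 CPM, against 42.8 to 47 CPM in the other 3). The same held for Phlda1 (123 CPM, against 45.1 to 57 CPM in the other 3), S100a9 (375 CPM, against 10.3 to 62.1 CPM in the other 3) and Reg3b (1550.4 CPM, against 25.9 to 82.3 CPM in the other 3). It stood below them for B3gnt7 (182 CPM, against 759.8 to 877 CPM in the other 3), Pigr (1787 CPM, against 4799 to 5042 CPM in the other 3) and Aqp8 (42.9 CPM, against 542 to 583 CPM in the other 3).

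Among summed lists, MEKi 0.3 replicate 4 was above its companions for the cytotoxic and NK cell genes (71.8 CPM, against 35.6 to 38.1 CPM in the other 3), TNF and NF-kB targets genes (1934 CPM, against 1044 to 1112 CPM in the other 3) and unfolded protein and amino acid stress genes (7125 CPM, against 3301 to 3855 CPM in the other 3). It was below them for the T helper cytokines and regulators genes (31.8 CPM, against 63.3 to 68.1 CPM in the other 3), fatty acid oxidation and PPAR targets genes (1530.0 CPM, against 2101 to 2151 CPM in the other 3) and pancreas genes (13.6 CPM, against 133 to 149.9 CPM in the other 3). MEKi 0.3 replicate 3 was above the rest of its group for Slc5a3 (47.8 CPM, against 34.1 to 36.4 CPM in the other 3). Vehicle replicate 2 was above the rest of its group for Penk (23.9 CPM, against 18.8 to 19.5 CPM in the other 3). Vehicle replicate 1 was above the rest of its group for Etv4 (20.2 CPM, against 13.2 to 14.1 CPM in the other 3). Vehicle replicate 1 was below the rest of its group for cytotoxic and NK cell genes (43.4 CPM, against 63.4 to 65.8 CPM in the other 3). Vehicle replicate 1 was below the rest of its group for epithelial antimicrobial and defence genes (16505 CPM, against 23268 to 23449 CPM in the other 3). Vehicle replicate 4 was above the rest of its group for pancreas genes (6855 CPM, against 29.1 to 40.1 CPM in the other 3).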

How the results depend on the processing

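Pairing by replicate number, in a replicate block fit of the 8 libraries alone, gave 405 genes in MEKi 0.3 against Vehicle where the unpaired fit gave 1. For MEKi 1 against MEKi 0.3, whose numbers did not deviate together in every pair, that block gave 0. A replicate block in all 24 libraries gave 1 gene for MEKi 0.3 against Vehicle. Without pairs 3 and 4 the paired count was 15 and 3572, and 1 without either of the other pairs. Counts for MEKi 0.3 against Vehicle were 0 in the unpaired fit of these groups alone, 92 with DESeq2, 3303 with limma-voom, 3 with no filter and 0 by the series table's names. They were 1 with RLE factors, library size only, a mean of at least 5 CPM and length offsets. Leaving out 1 library gave 0 (Vehicle replicate 4) to 1130 genes (MEKi 0.3 replicate 4). For MEKi 1 against MEKi 0.3, DESeq2 gave 2 genes, and leaving out 1 library gave 0 to 1 (without MEKi 0.3 replicate 3). The causes were not tested. The log2 fold change of Banp kept its sign except by the table's names, at 1.5 to 1.88 with 1 library left out. Spry4 was near 0 throughout and turned negative with DESeq2 (-0.00214), RLE factors (-0.00217), library size only (-0.00775) and length offsets (-0.0773), and with 1 library left out it ranged between -0.17 and 0.23.

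By the table's names, Vehicle would hold 2 files of untreated mice and 2 of MEKi 0.3, and MEKi 0.3 would hold 2 of Vehicle and 2 of MEKi 1, and 74 of 79 named genes changed sign on the log2 scale: Banp -0.33, Slc5a3 -0.61, Ccnt2 -0.19, Pnpla1 -0.40, Nfya -0.35, Hnf4g -0.37, Ptprn2 -0.55, Map3k5 -0.41, Lgr4 -0.65, Fgfr3 -1.08, Cth -0.78, B3gnt7 -0.52, Clic5 -0.25, Sult1d1 -1.15, Wfdc18 1.40, Igf1 0.95, Igfbp5 1.21, Tyrobp 0.99, Sod3 0.74, Lpl 0.48, Csf3r 1.21. Also Cd52 1.08, Il1b 0.72, Emp3 0.48, Pik3r6 1.19, Penk 0.43, Ier3 0.75, Ass1 0.35, Fam64a 1.27, Plvap 0.39, Aif1 0.79, Cd44 0.53, Ccl2 1.07, Irg1 1.20, Ccnb1 0.56, Aurka 0.66, Pigr -0.37, Atoh1 -0.45, Ppargc1a -1.09, Acadm -0.43, Chga -1.25, Sult1a1 -1.58. Also Abcg2 -0.74, Aqp8 -0.92, Zg16 -1.19, Slc5a8 -0.18, Erbb2 -0.20, Spry2 -0.17, Etv4 0.23, Phlda1 0.15, Egr1 0.60, Areg 0.46, Mcpt4 2.46, Cd3g 1.08, Timp1 1.71, S100a8 0.96, S100a9 0.73, Lcn2 0.64, Reg3b 0.27, Tnf 1.00, Sparc 0.11, Ddit3 -0.64, Ighv3-6 8.53. Also 2310079G19Rik -1.01, Adck3 -1.66, Slc10a5 -1.25, Gm12854 0.48, Ifi27l2a 0.41, Cped1 -0.55, Ankrd10 -0.25, B4galt6 0.085, Cfap43 0.54, Pphln1 0.26, Cma1 -0.31. At this depth low genes such as Pnpla1 and Mcpt4 rest on few counts, and counting limits cover counting error only.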
